A study of Homo sapiens with 12 samples.

Results

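The BCL2 family decides whether the outer membrane of the mitochondrion stays closed. In all, 10 of its regulators were followed in the cytoplasmic RNA of U2OS cells, a human osteosarcoma line. They were BCL2, BCL2L1 (BCL-xL), MCL1 and BCL2A1 (BFL1) among the pro-survival members, the effectors BAX and BAK1, and the BH3-only members BBC3 (PUMA), PMAIP1 (NOXA), BID and BCL2L11 (BIM). The members were chosen by name, and a probe was counted where its accession led to a member in RefSeq, which gave 16 probes for all 10 genes of 34127 probes on the array. The cells were transfected with 20 nM of control siRNA or siRNA against DBP5, GLE1 or IPPK, cultured for 48 h and separated with a mild detergent, and each siRNA was measured on 3 arrays, 12 in all. No group carried another allele or treatment. DBP5 (gene DDX19B) is an RNA helicase at the nuclear pore, GLE1 activates it, and IPPK makes the inositol phosphate that GLE1 needs, so that the comparisons ask how cytoplasmic mRNA changes when each of these mRNA export factors is reduced. The labels do not say which siRNA sequence of a target went onto the arrays, and they do not say whether replicates were separate cultures, while the methods name 3 independent array experiments.

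In this family, the pro-survival proteins hold the effectors and the BH3-only proteins in check. Freed effectors form pores in the outer membrane, cytochrome c escapes, and caspases are switched on. BH3-only proteins are the sensors: BIM, PUMA and BID bind all pro-survival proteins, NOXA mainly MCL1 and BFL1, and several are controlled mainly through the amount of their mRNA. MCL1, NOXA and BFL1 turn over fast, as does MCL1 mRNA.

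The siRNA targets were checked first. DDX19B was at 0.0643 ± 0.00169 of control (SD, n = 3) with DBP5 siRNA, GLE1 at 0.102 ± 0.0283 with GLE1 siRNA, and IPPK at 0.186 ± 0.00761 with IPPK siRNA. A second IPPK probe was at 0.495 ± 0.0408 of control with IPPK siRNA. Targets also differed from control with other siRNAs: DDX19B was at 0.498 ± 0.0277 of control with GLE1 siRNA (limma adjusted p = 8.97e-08) and 0.872 ± 0.0340 with IPPK siRNA (0.0124), GLE1 at 0.713 ± 0.0410 with IPPK siRNA (0.0187), and IPPK at 0.419 ± 0.0169 with DBP5 siRNA (8.27e-08). GLE1 with DBP5 siRNA, at 0.777 ± 0.0690, did not pass (limma adjusted p = 0.065). With GLE1 siRNA the IPPK probes parted, at 0.834 ± 0.0537 (0.00383) and 2.11 ± 0.0201-fold (3.07e-06). Of 8 markers of mesenchymal and bone cells, 7 were well above background on all 12 arrays, VIM among them. Of 8 markers of blood, epithelium, endothelium and liver, 3 were (PTPRC, EPCAM and CDH5), and the summed intensity of those 8 ranged from 917 to 1088 on control arrays, 686 to 803 with DBP5 siRNA, 836 to 980 with GLE1 siRNA and 569 to 768 with IPPK siRNA. Single markers went both ways: CDH1, not well above background on any control array, was at least 8.40-fold higher with GLE1 siRNA and at least 2.08-fold higher with IPPK siRNA, the latter with 2 of 3 arrays above background, and ALB was at least 2.01-fold higher with DBP5 siRNA. EPCAM fell to 0.657 ± 0.0306 of control with DBP5 siRNA (limma adjusted p = 0.0398) and 0.527 ± 0.178 with IPPK siRNA (0.0047), and PECAM1, called lower with IPPK siRNA (0.0228), was well above background on 1 control array and on 0 of those arrays. Of the mesenchymal and bone markers, CDH2 was 2.64 ± 0.293-fold with GLE1 siRNA and COL1A1 at 0.253 ± 0.0216 of control with IPPK siRNA. Of 5 RNAs listed beforehand as kept in the nucleus, 4 were well above background on all 12 arrays. The summed intensity of the 5 was 21013 to 27552 on control arrays, 29108 to 30671 with DBP5 siRNA, 40676 to 43264 with GLE1 siRNA and 30774 to 31163 with IPPK siRNA. Brighter probes weigh more in these sums. In the nuclear list PVT1 weighed most, at log2 intensities of 13.75 to 14.93, against 7.15 to 8.66 for MALAT1. Members of that list also went both ways. KCNQ1OT1 was at 1.59 ± 0.152-fold and 1.85 ± 0.00545-fold with DBP5 and GLE1 siRNA. MALAT1 was at 0.472 ± 0.148 with IPPK siRNA, and JPX was at least 2.06-fold lower with GLE1 siRNA. The part of any carry-over of nuclear RNA or of export itself in the values that follow was not tested. The arrays were normalized to each other, so a value says how much of an mRNA was in the cytoplasmic RNA relative to the other RNAs. Less of an mRNA per cell and less export of it cannot be told apart. A change in cell number or in total RNA is evened out by the normalization.

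Of the BH3-only genes that changed after every knock-down, the 3 with 1 promoter window in the RefSeq table used here are shown by the 250 bases before the start of that gene, because BBC3 and PMAIP1 were higher and BCL2L11, through its brightest probe, lower in all 3 comparisons with control. The letters are those of RefSeq in GRCh38.p14, 5′ to 3′ on the strand of the gene, at chr19:47232668-47232917 on the minus strand for BBC3, chr18:59899746-59899995 on the plus strand for PMAIP1 and chr2:111120664-111120913 on the plus strand for BCL2L11. Capitals mark matches on either strand to an E-box (CACGTG), a CRE core (TGACG), a GC box (GGGCGG) or a forkhead core (GTAAACA).
BBC3: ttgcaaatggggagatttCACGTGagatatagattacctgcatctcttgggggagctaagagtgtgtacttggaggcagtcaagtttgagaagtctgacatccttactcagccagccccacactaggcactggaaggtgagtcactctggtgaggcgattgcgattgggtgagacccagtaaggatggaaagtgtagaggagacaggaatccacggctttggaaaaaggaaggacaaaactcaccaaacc
PMAIP1: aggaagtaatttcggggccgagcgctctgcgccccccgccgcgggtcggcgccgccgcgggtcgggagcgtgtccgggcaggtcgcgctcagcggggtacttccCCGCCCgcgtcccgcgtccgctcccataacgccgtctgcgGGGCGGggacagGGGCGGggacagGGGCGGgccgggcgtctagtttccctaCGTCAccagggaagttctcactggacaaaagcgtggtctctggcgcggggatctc
BCL2L11: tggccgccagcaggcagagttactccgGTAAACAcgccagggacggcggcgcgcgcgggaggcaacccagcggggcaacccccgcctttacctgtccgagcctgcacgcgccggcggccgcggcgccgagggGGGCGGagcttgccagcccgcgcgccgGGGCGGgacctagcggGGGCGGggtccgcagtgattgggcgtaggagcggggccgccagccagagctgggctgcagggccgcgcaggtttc
The BBC3 window held 1 E-box, which 6.34% of 35116 such windows held. The PMAIP1 window held 4 GC boxes and 1 CRE core, and 42.6% and 21.2% of all windows held at least 1 of these. The BCL2L11 window held 3 GC boxes and 1 forkhead core, the latter in 2.98% of all windows. Windows of 9 of the 10 members were searched. The BAX window held 4 E-boxes, and the BCL2A1 window held none of these motifs. The kappaB consensus matched in no member window, against 5.21% of all windows. The motifs were chosen after the sequences were seen, and a match is a run of letters, not a bound site.

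All 10 members were well above background on all 12 arrays. With DBP5 siRNA 6 of the 10 changed against control, 3 lower and 3 higher, where 54.4% of all 20821 genes tested changed, 27.1% lower and 27.3% higher (limma, adjusted p under 0.05). With GLE1 siRNA 8 changed, 4 lower and 4 higher, against 62.4% of all genes, 30.4% lower and 32% higher. With IPPK siRNA 6 changed, 3 lower and 3 higher, against 55.6% of all genes, 28.2% lower and 27.3% higher. With 10 members, a share near that of the array is not a result about the family. The median log2 change of the 10 members was -0.17, 0.13 and 0.05 in that order, and that of all genes -0.02, 0.03 and -0.03. The 3 comparisons share their control arrays. Every one of these called members moved in one direction on each of the 3 slides, which held 1 array of each siRNA. The calls rest on the same arrays, which makes such agreement likely, so it is not separate evidence.

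By class and through the brightest probes, all 4 BH3-only genes changed after each knock-down, always BBC3 and PMAIP1 upwards and BID and BCL2L11 downwards. With 54.4%, 62.4% and 55.6% of all genes called, counts over classes of 2 to 4 genes are a description of these genes. Of the 2 effectors, 0 changed with DBP5 or IPPK siRNA by limma's adjusted p, and BAK1 changed with GLE1 siRNA. Of the 4 pro-survival genes, 2 changed with DBP5 siRNA, 3 with GLE1 siRNA and 2 with IPPK siRNA, and each time BCL2A1 was among those that rose by its brightest probe. Through the brightest probes, BBC3, BCL2A1, BCL2L11, BID and PMAIP1 were the 5 members called in one direction in all 3 comparisons, where 25.8% of all genes were, and BCL2L1 was the 1 member called in opposite directions. Other probes of BCL2A1 and BCL2L11 differed from this, as given with those genes.

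**Figure D1:**
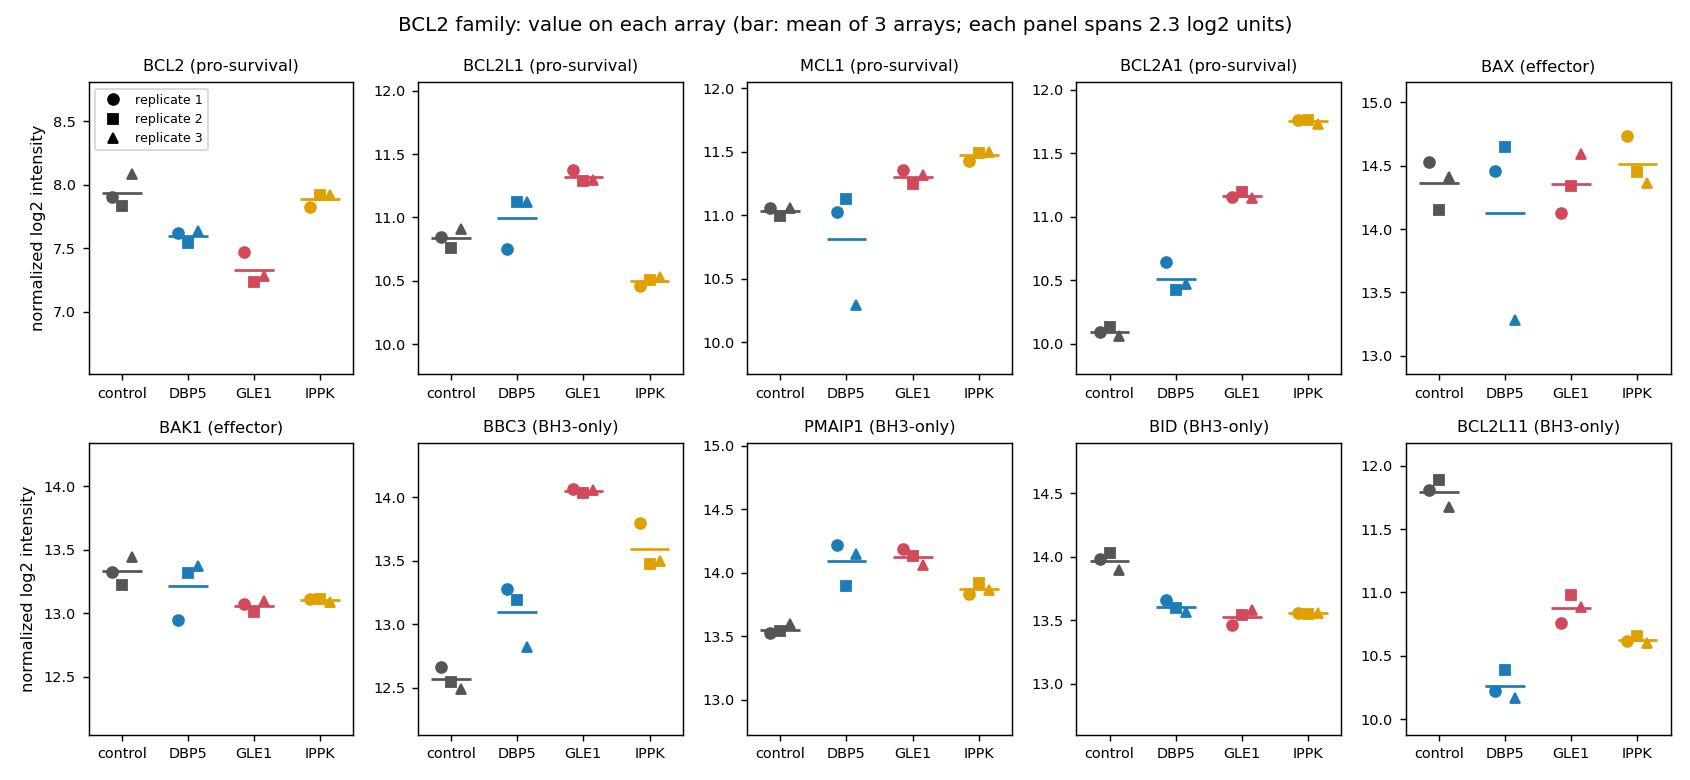
Normalized log2 intensity (y axis) of each member on each array, by siRNA (x axis), through the brightest probe of the gene. Symbols mark the replicate, which is also the slide, bars are means of 3 arrays, every panel spans 2.3 log2 units, and levels should not be compared between panels because probes differ. BBC3 and PMAIP1 sit above control with all 3 siRNAs, BID and BCL2L11 below, and 1 DBP5 siRNA array is low for both BAX (13.28) and MCL1 (10.30).

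**Figure D2:**
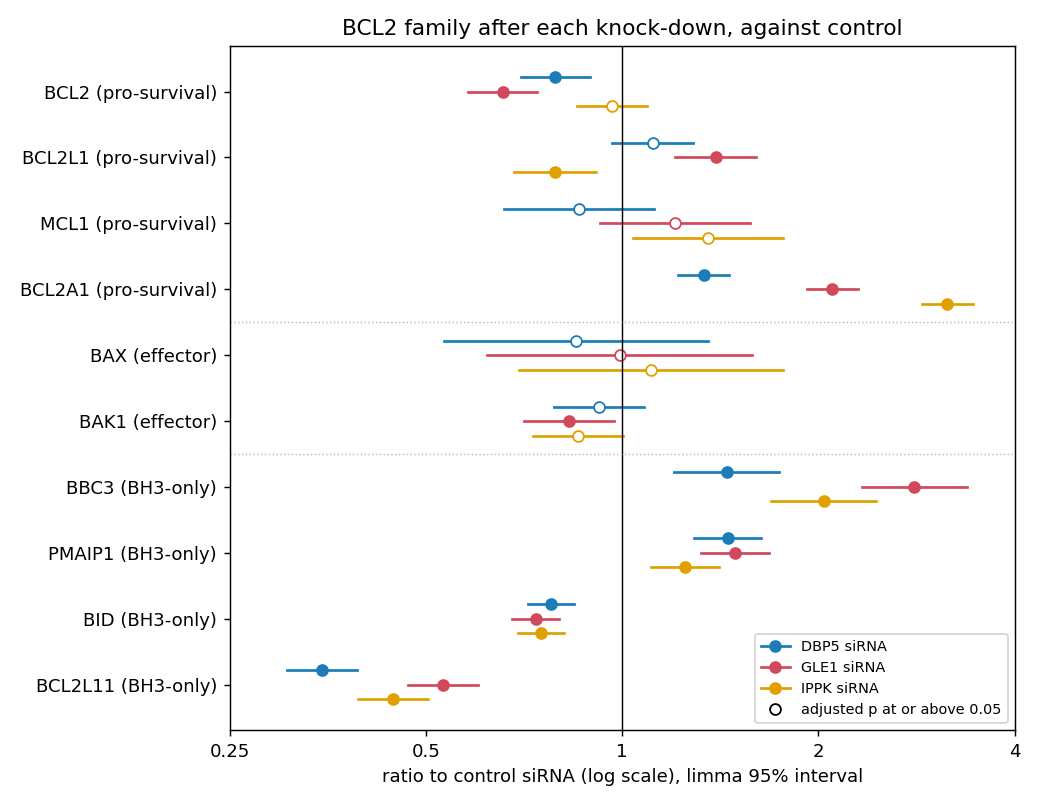
Ratio of each member to control siRNA (x axis, log scale) with limma's 95% interval, for the 3 knock-downs, genes ordered by class on the y axis. Filled points passed limma's adjusted p of 0.05. The 4 BH3-only genes are filled throughout, BBC3 reaching 2.80 with GLE1 siRNA and BCL2L11 falling to 0.346 with DBP5 siRNA, while the BAX intervals are the widest of the 10 genes.

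BBC3 encodes PUMA, a BH3-only protein that binds all pro-survival members. Its log2 intensities were 12.66, 12.54 and 12.49 on the control arrays, 13.27, 13.19 and 12.82 with DBP5 siRNA, 14.07, 14.03 and 14.06 with GLE1 siRNA and 13.80, 13.48 and 13.50 with IPPK siRNA. No array of any knock-down reached down into the control arrays, and the GLE1 siRNA arrays were the highest of the 12. Against control BBC3 was 1.45 ± 0.232-fold with DBP5 siRNA (SD, n = 3, limma adjusted p = 0.00331), 2.80 ± 0.0351-fold with GLE1 siRNA (1.42e-06) and 2.04 ± 0.265-fold with IPPK siRNA (3.54e-05). By limma, the order control, DBP5, IPPK, GLE1 held at each step. The neighbouring groups differed by 0.53, 0.49 and 0.46 on the log2 scale (limma adjusted p = 0.00331, 0.0061 and 0.0068). Each step went the same way on all 3 slides, but none passed in the alternative test paired by slide and adjusted over all genes. The span of its 4 group means, 1.49, was larger than that of 88.1% of the 18420 genes that were above background on every array.

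PMAIP1 encodes NOXA, the BH3-only protein that pairs with MCL1. Its log2 intensities were 13.53, 13.54 and 13.59 on the control arrays, 14.22, 13.90 and 14.15 with DBP5 siRNA, 14.19, 14.13 and 14.06 with GLE1 siRNA and 13.83, 13.92 and 13.87 with IPPK siRNA. All 9 knock-down arrays lay above the 3 control arrays. PMAIP1 was 1.45 ± 0.164-fold with DBP5 siRNA (limma adjusted p = 0.000168), 1.49 ± 0.0660-fold with GLE1 siRNA (7.75e-05) and 1.25 ± 0.0403-fold with IPPK siRNA (0.00493). GLE1 and DBP5 siRNA did not separate in this gene (ratio 1.03, 95% interval 0.910 to 1.16, limma adjusted p = 0.731). Its higher level with DBP5 than with IPPK siRNA, 1.16-fold at limma adjusted p = 0.0409, was lost when any 1 array other than DBP5 replicate 2, GLE1 replicate 1 or GLE1 replicate 3 was left out, with 0.133 without DBP5 replicate 1, and the groups overlapped.

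BCL2L11 encodes BIM, which binds every pro-survival member, and its mRNA is spliced into several isoforms. Through its brightest probe, named for NM_207002, the log2 intensities were 11.81, 11.89 and 11.67 on the control arrays, 10.22, 10.39 and 10.17 with DBP5 siRNA, 10.76, 10.98 and 10.89 with GLE1 siRNA and 10.62, 10.65 and 10.60 with IPPK siRNA. The 9 knock-down arrays lay below the control arrays, and the 3 siRNAs did not overlap with each other. BCL2L11 fell to 0.346 ± 0.0279 of control with DBP5 siRNA (limma adjusted p = 1.11e-07), 0.531 ± 0.0404 with GLE1 siRNA (2.59e-06) and 0.446 ± 0.00869 with IPPK siRNA (6.24e-07), the lowest ratio among the brightest probes of the members in each comparison. Through this probe, DBP5 siRNA lowered it below IPPK siRNA (limma adjusted p = 0.00332) and IPPK siRNA below GLE1 siRNA (0.0191), the latter lost when GLE1 replicate 2, GLE1 replicate 3 or IPPK replicate 3 was left out (0.0774, 0.0507 and 0.0553). The order of GLE1 and IPPK siRNA was not shared by the other probes: the one named for NM_138621 was lower with GLE1 than with IPPK siRNA (-0.38 on the log2 scale, limma adjusted p = 0.0237), and the second one named for NM_207002 was at -0.10 (0.422).

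Another 2 probes of BCL2L11 did not tell one story. The other probe named for NM_207002 also fell, to 0.566 ± 0.0733 of control with DBP5 siRNA, 0.676 ± 0.0264 with GLE1 siRNA and 0.723 ± 0.0236 with IPPK siRNA. The probe named for NM_138621 had log2 intensities of 9.84, 9.98 and 9.82 on the control arrays, 10.09, 10.17 and 10.24 with DBP5 siRNA, 9.77, 10.28 and 10.13 with GLE1 siRNA and 10.24, 10.52 and 10.55 with IPPK siRNA. All 3 arrays lay above control with DBP5 siRNA and with IPPK siRNA, and those with GLE1 siRNA overlapped control. It rose to 1.47 ± 0.168-fold with IPPK siRNA (limma adjusted p = 0.00337) and was at 1.22-fold with DBP5 siRNA (0.0826, and 0.0225 with the replicate number as a block) and 1.13-fold with GLE1 siRNA (0.257). Fitted as a difference within each array, the brightest probe fell by 1.81 log2 units more than this one with DBP5 siRNA (95% interval of the difference -2.06 to -1.57, limma adjusted p = 7.41e-07), by 1.09 more with GLE1 siRNA (1.84e-05) and by 1.72 more with IPPK siRNA (9.36e-07). The fall of BCL2L11 is therefore a statement on the RNA under the NM_207002 probes. Which isoforms each probe reads is not given in the sources used here.

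BID is cut by caspase-8 and carries the death receptor signal to the mitochondrion. Its log2 intensities ran from 13.89 to 14.03 on the control arrays, 13.56 to 13.66 with DBP5 siRNA, 13.46 to 13.58 with GLE1 siRNA and 13.55 to 13.56 with IPPK siRNA. Every knock-down array was below every control array, and the SD within groups was smaller than that of most genes, exceeding 9.09% of them. BID fell to 0.778 ± 0.0272 of control with DBP5 siRNA (limma adjusted p = 0.000174), 0.736 ± 0.0310 with GLE1 siRNA (3.01e-05) and 0.751 ± 0.00235 with IPPK siRNA (6.64e-05). By limma the knock-downs did not separate from each other in BID, with ratios of 0.947 to 1.04 between them. The DBP5 siRNA arrays all lay just above the IPPK siRNA arrays (limma adjusted p = 0.477). Its second probe gave 0.793, 0.792 and 0.761 of control, and the probes differed by at most 0.10 on the log2 scale, short of limma's threshold in each comparison with control.

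BCL2A1, encoding BFL1, is a pro-survival target of NF-kappaB. Through its brightest probe the log2 intensities were 10.09, 10.14 and 10.06 on the control arrays, 10.64, 10.42 and 10.47 with DBP5 siRNA, 11.16, 11.20 and 11.15 with GLE1 siRNA and 11.76, 11.76 and 11.73 with IPPK siRNA. The groups formed 4 steps without overlap. BCL2A1 was 1.33 ± 0.110-fold of control with DBP5 siRNA (limma adjusted p = 0.000141), 2.10 ± 0.0408-fold with GLE1 siRNA (7.34e-08) and 3.15 ± 0.0352-fold with IPPK siRNA (6.81e-09). Its span over the group means, 1.66, was the widest of the 10 members and larger than that of 91.6% of genes.

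The second BCL2A1 probe, with the same accession NM_004049, went the other way for 2 of the 3 siRNAs. Its log2 intensities were 9.22, 9.30 and 9.21 on the control arrays, 8.35, 8.09 and 7.89 with DBP5 siRNA, 8.40, 8.18 and 8.11 with GLE1 siRNA and 11.25, 11.26 and 11.31 with IPPK siRNA. The DBP5 and GLE1 siRNA arrays were all below control and the IPPK siRNA arrays all above. This probe fell to 0.456 ± 0.0728 of control with DBP5 siRNA (limma adjusted p = 7.78e-06) and 0.497 ± 0.0530 with GLE1 siRNA (1.23e-05), and rose to 4.09 ± 0.0897-fold with IPPK siRNA (9.77e-08). The log2 changes of the probes differed by 1.55 with DBP5 siRNA (limma adjusted p = 6.85e-07), 2.08 with GLE1 siRNA (4.69e-08) and -0.37 with IPPK siRNA (0.0106). Only the rise with IPPK siRNA was shared by both probes, so no direction can be given for BCL2A1 with DBP5 or GLE1 siRNA.

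BCL2 is the founding pro-survival member. Its brightest probe is named for NM_000657, the accession of the shorter beta form, and had log2 intensities of 7.90, 7.84 and 8.08 on the control arrays, 7.62, 7.54 and 7.64 with DBP5 siRNA, 7.47, 7.23 and 7.28 with GLE1 siRNA and 7.83, 7.92 and 7.92 with IPPK siRNA. The DBP5 and GLE1 siRNA arrays lay below control, and the IPPK siRNA arrays overlapped with the control arrays, replicate 1 just below the lowest of them. This probe fell to 0.790 ± 0.0276 of control with DBP5 siRNA (limma adjusted p = 0.0041) and 0.656 ± 0.0588 with GLE1 siRNA (5.88e-05), and was at 0.965 with IPPK siRNA (95% interval 0.853 to 1.09, 0.622).

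The dimmer BCL2 probe, named for NM_000633, the accession of the alpha form, was printed in 10 spots. Which BCL2 isoforms each probe reads is not given in the sources used here. Its log2 intensities were 7.14, 7.39 and 7.19 on the control arrays, 5.77, 5.76 and 5.72 with DBP5 siRNA, 6.56, 6.72 and 6.69 with GLE1 siRNA and 7.29, 7.51 and 7.49 with IPPK siRNA. The DBP5 siRNA arrays were the lowest here, where the GLE1 siRNA arrays were the lowest by the other probe. The NM_000633 probe fell to 0.356 ± 0.00652 of control with DBP5 siRNA (limma adjusted p = 1.48e-07) and 0.668 ± 0.0381 with GLE1 siRNA (9.61e-05), and was at 1.14 with IPPK siRNA (0.0759, and 0.034 with the replicate number as a block). With DBP5 siRNA the log2 changes of the probes differed by 1.15 (limma adjusted p = 4.78e-05), and with GLE1 siRNA by -0.03 (0.905). BCL2 was thus lower with GLE1 than with DBP5 siRNA by the NM_000657 probe (-0.27, limma adjusted p = 0.0148, and 0.0618 and 0.0517 without GLE1 replicate 2 or 3) and higher by the NM_000633 probe (0.91).

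**Figure D3:**
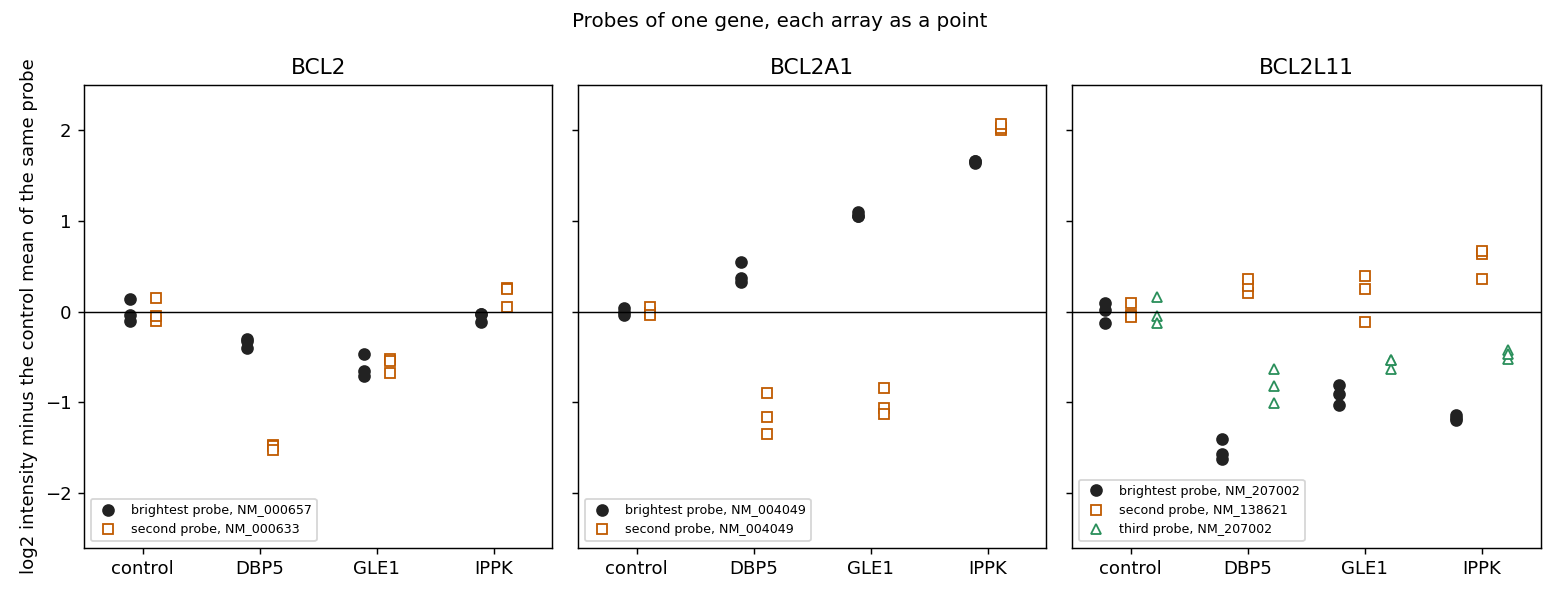
Log2 intensity minus the control mean of the same probe (y axis) on each array, by siRNA (x axis), for the 3 members whose probes differed in comparisons with control. Filled circles are the brightest probe and open symbols the others, each point 1 array. The BCL2A1 probes part with DBP5 and GLE1 siRNA and meet above control with IPPK siRNA, BCL2 parts with DBP5 siRNA, and the NM_138621 probe of BCL2L11 lies above the control mean on 8 of the 9 knock-down arrays, all but GLE1 replicate 1 (9.77), where the NM_207002 probes fall.

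Such differences between probes were not confined to this family. Over 5053 pairs of probes from 4191 genes, the changes of a pair differed past limma's threshold in 31.9%, 37.8% and 33.3% of pairs with DBP5, GLE1 and IPPK siRNA, and both probes were called in opposite directions in 5.42%, 6.85% and 5.32%. The pairs in opposite directions among the members were BCL2A1 with DBP5 and GLE1 siRNA and the NM_138621 probe of BCL2L11 with IPPK siRNA, and with the replicate number as a block that probe also with DBP5 siRNA.

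BCL2L1, which encodes BCL-xL, was, through the brightest probes, the member called in opposite directions with different siRNAs. Its log2 intensities were 10.85, 10.76 and 10.91 on the control arrays, 10.75, 11.12 and 11.12 with DBP5 siRNA, 11.37, 11.29 and 11.30 with GLE1 siRNA and 10.46, 10.51 and 10.53 with IPPK siRNA. The GLE1 siRNA arrays were above control, the IPPK siRNA arrays below it, and DBP5 siRNA arrays on both sides, with replicate 1 just below the lowest control array. BCL2L1 rose to 1.39 ± 0.0456-fold with GLE1 siRNA (limma adjusted p = 0.00107) and fell to 0.789 ± 0.0193 with IPPK siRNA (0.00944), and GLE1 siRNA stood 1.76 ± 0.0578-fold over IPPK siRNA with no overlap. With DBP5 siRNA it was at 1.11 ± 0.160 of control (limma adjusted p = 0.192), and without DBP5 replicate 1 the log2 change was 0.28 (0.00219).

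MCL1, a short-lived protein encoded by a short-lived mRNA, had log2 intensities of 11.06, 10.99 and 11.06 on the control arrays, 11.02, 11.12 and 10.30 with DBP5 siRNA, 11.35, 11.24 and 11.32 with GLE1 siRNA and 11.43, 11.49 and 11.50 with IPPK siRNA. The GLE1 and IPPK siRNA arrays all lay above the control arrays, and 1 DBP5 siRNA array, replicate 3, lay far below all the others. MCL1 was at 1.20 ± 0.0470 of control with GLE1 siRNA (limma adjusted p = 0.205) and 1.35 ± 0.0370 with IPPK siRNA (0.0525), and neither passed. That array decides the outcome through the spread it adds: without it the log2 changes stayed at 0.27 and 0.44 and passed (limma adjusted p = 0.00125 and 6.96e-05), the latter also without DBP5 replicate 2 (0.032), and with DBP5 siRNA the change was 0.04 (0.64) against -0.22 with all arrays (0.315). With all 12 arrays kept, MCL1 also passed with IPPK siRNA after normexp background correction (limma adjusted p = 0.0248), in the processed values of the authors (0.0273) and with the filter on all 12 arrays (0.0442). MCL1 was lower with DBP5 than with IPPK siRNA, 0.634 ± 0.185 with all arrays (limma adjusted p = 0.00894), and the log2 difference went from -0.66 to -0.40 without that array (0.000421).

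BAX, the effector that moves from the cytosol into the mitochondrial membrane, changed in none of the 6 contrasts between siRNAs (limma, adjusted p from 0.337 to 0.977). Its log2 intensities were 14.53, 14.15 and 14.41 on the control arrays, 14.46, 14.65 and 13.28 with DBP5 siRNA, 14.12, 14.34 and 14.59 with GLE1 siRNA and 14.73, 14.45 and 14.36 with IPPK siRNA. The groups overlapped, and DBP5 replicate 3 was again far below. The 10 spots of the probe ran from 13.21 to 13.34 on that array and never below 14.07 on any other, so all 10 spots shared the low value. The second BAX probe was also lowest there, at 9.54 against 9.70 to 10.27 on the other 11 arrays. The BAX probes differed from each other in 1 of the 6 contrasts, DBP5 against IPPK siRNA, by -0.51 on the log2 scale (95% interval -0.85 to -0.17, limma adjusted p = 0.0307). The ratio to control was 0.850 with DBP5 siRNA (95% interval 0.533 to 1.36), 0.991 with GLE1 siRNA (0.621 to 1.58) and 1.11 with IPPK siRNA (0.694 to 1.77), and changes within these intervals could not have been told from none. The direction with DBP5 siRNA rests on replicate 3, since the other arrays of that group, at 14.46 and 14.65, lay above the control mean of 14.37. The SD of BAX within groups was larger than that of 94.1% of genes and that of MCL1 larger than that of 80.8%. Over all genes DBP5 replicate 3 did not stand apart: its deviations from the other arrays of its group had an SD of 0.263, against 0.262 and 0.260 for the other DBP5 siRNA arrays.

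**Figure D4:**
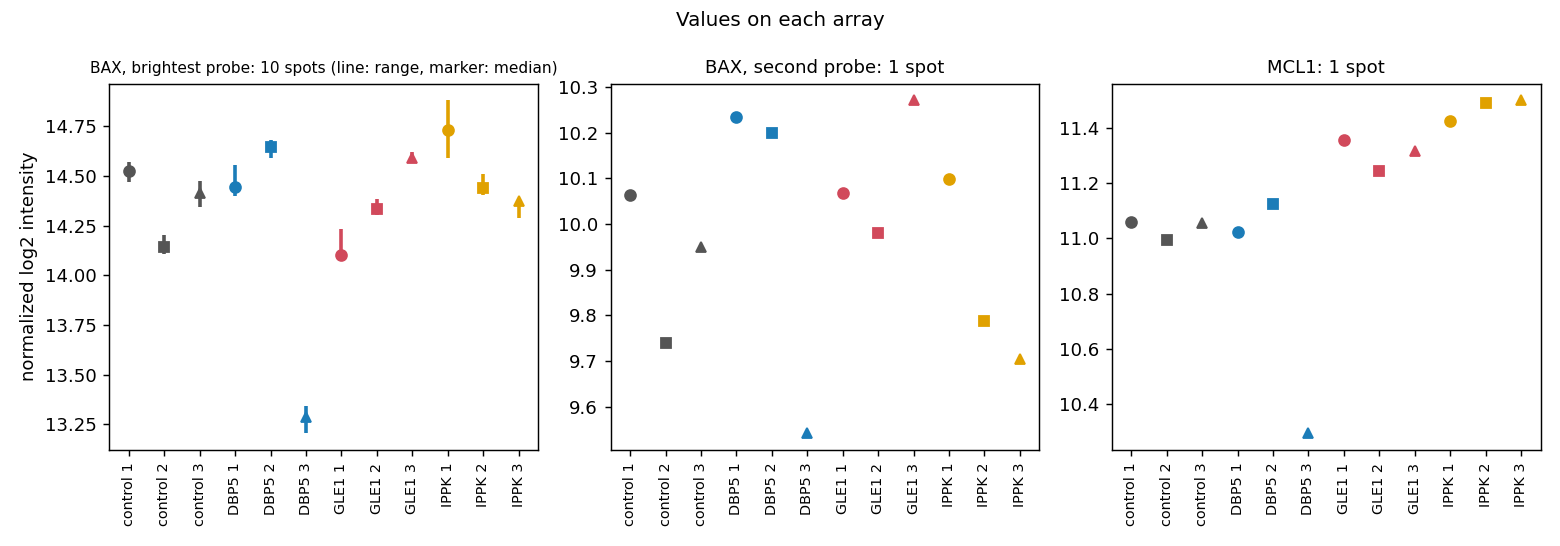
Normalized log2 intensity (y axis) on each of the 12 arrays (x axis) for the 10 spots of the brightest BAX probe, as range and median, and for the single spot of the second BAX probe and of MCL1. The y axes differ between panels. DBP5 replicate 3 is the lowest array in all 3 panels, at 13.29, 9.54 and 10.30.

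BAK1, the effector that sits in the outer membrane at rest, had log2 intensities of 13.22 to 13.44 on the control arrays, 12.94 to 13.38 with DBP5 siRNA, 13.01 to 13.09 with GLE1 siRNA and 13.09 to 13.12 with IPPK siRNA. The GLE1 and IPPK siRNA arrays were all below control, by little. BAK1 was at 0.829 ± 0.0253 of control with GLE1 siRNA (limma adjusted p = 0.0402), 0.855 ± 0.00935 with IPPK siRNA (0.0864) and 0.921 ± 0.144 with DBP5 siRNA (0.375). The call with GLE1 siRNA was lost when control replicate 1, control replicate 3 or any GLE1 or IPPK siRNA array was left out, with limma adjusted p up to 0.135 without control replicate 3, and after quantile normalization (0.0848) or with no filter on dim probes (0.0603). Without DBP5 replicate 1 BAK1 passed with IPPK siRNA as well (limma adjusted p = 0.00841), as it did after scaling to the 75th percentile (0.0413).

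The knock-downs were also set against each other. GLE1 against DBP5 siRNA changed 6 of 10 members, 1 lower and 5 higher, where 54.9% of all genes changed, 27.2% lower and 27.7% higher (limma, adjusted p under 0.05). GLE1 against IPPK siRNA changed 6, 2 lower and 4 higher, against 60.8% of all genes, 29.6% lower and 31.2% higher. DBP5 against IPPK siRNA changed 7, 5 lower and 2 higher, against 49.1% of all genes, 24.4% lower and 24.7% higher. BBC3 was 1.94 ± 0.0243-fold higher with GLE1 than with DBP5 siRNA and 1.38 ± 0.0172-fold higher than with IPPK siRNA. Among the pro-survival genes, MCL1, BCL2L1 and BCL2A1 by its brightest probe were higher with GLE1 than with DBP5 siRNA, at ratios of 1.40, 1.25 and 1.58. The second BCL2A1 probe did not separate GLE1 from DBP5 siRNA (log2 difference 0.12, limma adjusted p = 0.369). Without DBP5 replicate 3 the log2 difference of MCL1 went from 0.49 to 0.23 (limma adjusted p = 0.00759). MCL1 in this contrast passed by little with all arrays (limma adjusted p = 0.0326) and did not pass without GLE1 replicate 1, 2 or 3 (0.0826, 0.0563 and 0.0739) or after quantile normalization (0.0519).

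The 3 members whose group means spanned at least 1 log2 unit through the brightest probe were set against 18420 genes with signal above background on every array, to find the genes with the most similar 4 group means, each centred on its own mean. BBC3 lay nearest to CDH2 (distance 0.0899 log2 units) and PLAG1 (0.0904). BCL2L11 lay nearest to CEACAM1 (0.0736) and SLC7A2 (0.0747), and BCL2A1 to FAM135A (0.117) and AKR1B10 (0.167). Each pattern is that of the brightest probe, which the other probes of BCL2A1 and BCL2L11 did not share. These are likenesses over 4 means, found by a search through the same arrays.

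For the lists that follow, the counts stand beside 27.1%, 30.4% and 28.2% of all genes lower and 27.3%, 32% and 27.3% higher with DBP5, GLE1 and IPPK siRNA, and nothing particular to a list is read from them. Around the family, 11 of 13 further BCL2 relatives were tested. BCL2L2, which encodes the pro-survival BCL-w, fell most in each comparison, to 0.366 ± 0.0166, 0.317 ± 0.00408 and 0.304 ± 0.00983 of control with DBP5, GLE1 and IPPK siRNA (limma adjusted p = 8.2e-09, 1.44e-09 and 2.3e-09). The gene that rose most was BAD with DBP5 siRNA (1.38 ± 0.138-fold), BIK with GLE1 siRNA (1.94 ± 0.149-fold) and HRK with IPPK siRNA (1.46 ± 0.0274-fold). These are BH3-only genes, and no class pattern is read from 1 gene per siRNA. In that order 5, 2 and 4 of the 11 fell and 1, 6 and 2 rose, with median log2 changes of -0.23, 0.29 and -0.17. BCL2L10 and BCL2L14 were not well above background on any array.

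Downstream, 18 genes of the apoptosome, the caspases and their inhibitors were tested, where 54.4%, 62.4% and 55.6% of all genes were called with DBP5, GLE1 and IPPK siRNA. With DBP5 siRNA 7 fell and 4 rose, with GLE1 siRNA 9 fell and 7 rose, and with IPPK siRNA 4 fell and 9 rose. APAF1, the scaffold that cytochrome c assembles, fell most with GLE1 siRNA (0.313 ± 0.0218). BIRC3, which encodes the ubiquitin ligase cIAP2 of TNF receptor signalling and is a target of NF-kappaB, rose most with GLE1 siRNA (2.19 ± 0.244-fold) and IPPK siRNA (27.6 ± 0.518-fold), and CASP6, an executioner caspase, rose most with DBP5 siRNA (1.57 ± 0.0566-fold).

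Of 16 genes of the death receptor pathway, which reaches the family through BID, 14 were tested, and 3, 2 and 2 fell while 7, 8 and 6 rose with DBP5, GLE1 and IPPK siRNA. FAS, the receptor of FAS ligand, rose most with GLE1 siRNA (3.40 ± 0.422-fold) and IPPK siRNA (2.78 ± 0.142-fold). TNF fell most with DBP5 siRNA (0.178 ± 0.00187) and IPPK siRNA (0.173 ± 0.0237, with 2 of the 3 arrays well above background), and CASP8, which cuts BID, fell most with GLE1 siRNA (0.388 ± 0.0945). TNFRSF10C, a decoy receptor, rose most with DBP5 siRNA (5.82-fold, limma adjusted p = 0.0223), but was well above background on 1 of the 3 control arrays.

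Of 14 partners in the outer membrane, 2, 2 and 0 fell and 3, 9 and 10 rose, beside 27.1%, 30.4% and 28.2% of all genes lower and 27.3%, 32% and 27.3% higher, with median log2 changes of 0.03, 0.31 and 0.17. MTCH2, the docking site of BID, rose most with DBP5 siRNA (1.41 ± 0.0168-fold) and GLE1 siRNA (1.67 ± 0.0965-fold) and the fission factor FIS1 with IPPK siRNA (1.34 ± 0.0235-fold), while BECN1, a BH3 protein of autophagy, fell most with DBP5 siRNA (0.586 ± 0.0436) and the fusion factor MFN2 with GLE1 siRNA (0.687 ± 0.0171). Of 11 tested genes that set the life of MCL1 protein, 4, 3 and 4 fell and 5, 7 and 6 rose. USP9X, the deubiquitinase that keeps MCL1, rose most with every siRNA, to 2.85 ± 0.419, 3.97 ± 1.48 and 3.85 ± 0.405-fold, and the genes that fell most were FBXW7, a ligase subunit for MCL1 (0.578 ± 0.0344, DBP5 siRNA), and the mitotic genes CDK1 (0.383 ± 0.0105, GLE1 siRNA) and CDC20 (0.657 ± 0.0329, IPPK siRNA).

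Of 18 transcription factors and readouts linked to the members, 8, 6 and 7 fell and 3, 7 and 7 rose with DBP5, GLE1 and IPPK siRNA. ATF3, a stress factor, rose most with GLE1 siRNA (2.40 ± 0.0519-fold). CHAC1, a target of ATF4, fell most with DBP5 siRNA (0.247 ± 0.0105), the cell cycle factor E2F1 with GLE1 siRNA (0.286 ± 0.0120), and DDIT3, which drives BCL2L11 in stress of the endoplasmic reticulum, with IPPK siRNA (0.448 ± 0.168).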

How the data were processed

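Cytoplasmic RNA was labelled with Cy3 and hybridized to one-colour Agilent arrays. Per the file headers, the authors deposited the output of Feature Extraction, a linear intensity per spot after background subtraction, with flags. A table of log2 values was also deposited, normalized with LOESS by the authors according to their methods. Its columns followed the log2 median spot signal before subtraction (Pearson's r over probes 0.9998 or more), and no source used here gives the background setting.

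Control and outlier spots were dropped, the subtracted intensities were put on the log2 scale and evened out between the 12 arrays by cyclic loess, and repeated spots were averaged. The brightest probe over all arrays stood for a gene. A gene was tested if some siRNA had it well above background on its 3 arrays, which left 20821 of 27522 names. A probe was named by its accession in RefSeq (26449 of 34127 probes, 77.5%, GRCh38.p14, used for names and promoter windows), and otherwise kept the design's name, while the design itself names another build. Each contrast was tested with limma 3.58.1 in R 4.3.3, as a two-sided test from a model with a mean for each siRNA, and p was adjusted over the tested genes by Benjamini-Hochberg (threshold 0.05). Other probes were tested in a fit over 25878 probes. Ratios are 2 to the power of the log2 difference, with the SD of the 3 arrays of the first siRNA around the mean of the second. Where a gene was not well above background on any array of a group, "at least" sets the brighter mean against, per array, the higher of the dim probe and the lowest signal called well above background. P-values measure the spread between these arrays. On simulated data with 200 of 20817 genes changed by 1 log2 unit, 164 were recovered for DBP5 siRNA, 164 for GLE1 siRNA and 170 for IPPK siRNA, with 4, 9 and 9 false calls. That setting changed far fewer genes than were called here, and by more than most members moved. It therefore does not measure the error of the calls above. Arrays give no count of molecules, their number limits the precision, and 0 spots were saturated. Between 70.9% and 77.7% of probes were well above background, the lowest shares with IPPK siRNA. Tables and figures used pandas 2.3.3 and matplotlib 3.10.9 in Python 3.11.15.

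The members and lists were chosen with earlier results of these data known. Named were all members, the genes of each list that fell most and rose most among those called, and the 2 nearest patterns. Some genes that this rule names and 1 of the motifs searched are not reported here. Full values by array were given for members that changed at least 1.5-fold, and for PMAIP1, BCL2L1, MCL1 and BAX after their values were seen.

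The replicate number marks the slide, which held 1 array of each siRNA. Arrays of one number deviated together from their group means (18 pairs, correlation across genes 0.315 to 0.544, against -0.333 to -0.0162 in the 36 other pairs), so the numbers pair the arrays, and a fit with the number as a block was run as an alternative. Other alternatives were quantile normalization, scaling to the 75th percentile, the authors' log2 table, normexp on the median signal (offset 50), looser and stricter filters, the mean of a gene's probes, a fit on the 6 arrays of a contrast, dropping each array and a t-test paired by slide. The methods name a paired t-test for tests given in the figure legends. For the arrays they name rank-product gene lists, which were not run here. The comparison of the probes of a gene was added after seeing the data.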

Additional observations from a re-analysis of the deposited data

How the results depend on the processing

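Over 23 alternative settings, of the 1380 values of single members 1303 kept their side of limma's threshold, the called ones with their direction. Of the others, 56 kept direction and lost the call, 18 gained one and 3 called values turned. Values that were not called could change sign without being counted as turned, as MCL1 with DBP5 siRNA did without DBP5 replicate 3. The 3 called values that turned did so with the mean of the probes of a gene: BCL2A1 with DBP5 siRNA against control went to -0.36 on the log2 scale (limma adjusted p = 0.00232), BCL2 with GLE1 against DBP5 siRNA to 0.32 (0.000489) and BCL2L11 with GLE1 against IPPK siRNA to -0.0754 (0.306), since that mean joins probes that disagree. With the replicate block, all 60 calls and directions through the brightest probes stayed the same, the counts of members called remaining 6, 8 and 6 against control, and 6, 6 and 7 between knock-downs; among the other probes, the block brought 3 further values past the threshold, BCL2 by NM_000633 with IPPK siRNA (0.034) and BCL2L11 by NM_138621 with DBP5 siRNA against control (0.0225) and against IPPK siRNA (0.0297). The paired t-test, adjusted over all genes, called 2 members with DBP5 siRNA, 8 with GLE1 siRNA and 7 with IPPK siRNA against control. Between knock-downs it called 1 with GLE1 against DBP5 siRNA, 2 with GLE1 against IPPK siRNA and 1 with DBP5 against IPPK siRNA. In that order, it called 24.3%, 47.2%, 36.9%, 25.8%, 49.2% and 18.7% of all genes. With each array left out in turn the counts of members called were 6 to 7, 7 to 9 and 6 to 7 against control, and 4 to 7, 5 to 7 and 6 to 7 between knock-downs. Through the brightest probes or the mean of a gene's probes, BBC3, PMAIP1, BID and BCL2L11 stayed called against control in all of these settings. The exceptions were BBC3 and PMAIP1 with DBP5 siRNA under the paired t-test (0.0837 and 0.079). The NM_138621 probe of BCL2L11 on its own did not share the fall of that gene, and rose with IPPK siRNA.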
